A study of Rattus norvegicus with 10 samples.

Results

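The rows described here lie in an interval of rat chromosome 2 taken as the alcohol dehydrogenase cluster. A row was taken when all its exons fall between 243.3 and 243.85 Mb, it lists at least 2 distinct exons, and it has 10 or more counts in at least 2 of the 10 libraries. Of the 13 rows listed in the interval, 5 met these conditions, out of 32623 rows in all. The interval was chosen by the measured level of a 9-exon row from 243.502 to 243.517 Mb, which was higher with indomethacin than with diclofenac or aspirin. For that row, every comparison that uses indomethacin, diclofenac or aspirin libraries is therefore a description, with no test.

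The libraries, 2 for each of 5 groups, were made from stomach lining (gastric mucosa) RNA of Sprague Dawley rats. One treated group got the magnolia compound honokiol, injected intraperitoneally at a dose of 40 mg/kg with a lead of 30 min over indomethacin, whose dose in that group comes from the general protocol. The other treated groups got single oral drugs, which were indomethacin (48 mg/kg), diclofenac (75 mg/kg) and aspirin (400 mg/kg). The labels of the control group name no treatment and no vehicle. These 3 drugs are non-steroidal anti-inflammatory drugs (NSAIDs), inhibitors of cyclooxygenases, and stomachs were sampled at 4 h. For the honokiol libraries the time label says 0.5 h, which equals the lead, and 4 h is taken from the general protocol. Epithelial cells are the labelled cell type, and because no identifier could be paired with a gene symbol, the marker genes of gastric cell types could not be looked up. Whether the 2 libraries of a group come from different rats is not stated, and p-values then reflect library-to-library spread, which may be technical.

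Alcohol dehydrogenases are zinc enzymes that oxidise alcohols to aldehydes with NAD+. Mammals carry several classes side by side on 1 chromosome. The class I enzymes are best known for clearing ethanol in liver, the class III enzyme, encoded by Adh5, acts on the glutathione adduct of formaldehyde in most tissues, and the class IV enzyme, encoded by Adh7, is known from the epithelium of the stomach and upper digestive tract, where it oxidises ethanol and retinol.

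Of the 32623 identifiers, 0 could be matched to the RefSeq gene table of assembly GRCr8, and the tables of counts hold no symbols. Names were therefore looked for by gene span, the distance from the first to the last base. The 9-exon row (ENSRNOG00000032959, plus strand) spans 14460 nt, exactly the span of Adh7 in that table. An 11-exon row on the minus strand, from 243744620 to 243777673, spans 33054 nt, exactly that of Metap1, which encodes a methionine aminopeptidase that trims the first residue of new proteins. An equal span alone is weak ground, because 88 rows of chromosome 2 with spans of at least 2000 nt had a single equal span in the table and at most 43 of them lay in 1 order in both. The starts of these 2 rows, however, lie 242547 nt apart in the files, and the starts of Adh7 and Metap1 differ from that spacing by 5 nt. Between Adh7 and Metap1 the RefSeq table lists 9 genes, 6 of them with alcohol dehydrogenase symbols, namely Adh1c, Adh6a, Adh1-ps1, Adh6, Adh4 and Adh5. The names Adh7 and Metap1 thus rest on span and spacing and not on identifiers, and the other rows are called by their number of exons. No source used here states the genome build of the files, so positions are as the files list them.

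The promoters of the genes matched by span are shown because the first belongs to the row whose level differed between the drugs and the second to a row at the other end of the interval, which varied little. Both are windows of 300 bases from RefSeq, build GRCr8, chromosome 2, from 250 bases before the start of the gene to 50 after it, written 5′ to 3′ on the strand of the gene, plus for Adh7 and minus for Metap1. Capitals mark the motifs TATTTA and GGGCGG, searched on both strands, which share no base in these windows.
Adh7: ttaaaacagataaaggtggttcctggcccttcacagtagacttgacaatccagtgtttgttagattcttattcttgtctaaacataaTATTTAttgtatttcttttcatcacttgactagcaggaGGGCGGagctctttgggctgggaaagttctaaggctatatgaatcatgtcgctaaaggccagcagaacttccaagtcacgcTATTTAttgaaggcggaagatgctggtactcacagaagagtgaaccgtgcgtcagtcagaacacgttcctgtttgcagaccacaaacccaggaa
Metap1: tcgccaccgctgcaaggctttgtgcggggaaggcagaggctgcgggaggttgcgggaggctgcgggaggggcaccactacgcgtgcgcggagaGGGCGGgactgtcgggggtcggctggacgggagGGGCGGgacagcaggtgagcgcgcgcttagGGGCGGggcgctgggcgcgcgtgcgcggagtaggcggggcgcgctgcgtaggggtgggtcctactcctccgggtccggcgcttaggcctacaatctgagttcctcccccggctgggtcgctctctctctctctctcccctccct
The Adh7 window held 43.0% G and C, against a median of 51.7% over 33469 promoters, and 7 CG pairs, which is the median. It held TATTTA at 163 and 44 bases before the start. The Metap1 window held 72.7% G and C, 34 CG pairs and 0 matches of TATTTA. More CG pairs were thus present in the Metap1 window than in 93.2% of promoters. GGGCGG had 1 match in the Adh7 window and 3 in the Metap1 window. TATTTA is found in 14.7% of all promoters of this length and GGGCGG in 33.1%. These matches describe the letters of the windows only.

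The exon lengths listed in the files set 3 of the 5 rows apart from the rest of the annotation, by a feature that did not enter their choice. Exons 2 to 6 of the 9-exon row measure 102, 139, 88, 217 and 261 nt. Runs with the same length at the first, the third and the fifth of these places, and a length within 3 nt at the second, were searched for in all 32623 rows in both orders. Such a run was present in 4 rows, and all 4 lie in the interval. In the 9-exon row it is followed by exons of 136 and 139 nt. A 20-exon row from 243550627 to 243687857, on the plus strand, held it at exons 3 to 7 and again at exons 12 to 16. A 23-exon row from 243700784 to 243740899, on the plus strand, held it at exons 3 to 7 and again at exons 14 to 18. The fourth length in these runs was 223 and 217 nt in the 20-exon row and 232 and 220 nt in the 23-exon row. Each of these long rows therefore lists 2 runs under 1 identifier, and its count cannot be divided between them. The remaining run belonged to another 9-exon row, from 243577082 to 243599400, that lies in a gap of 94821 nt between exons of the 20-exon row. None of its 9 exons overlapped an exon of that row, and it missed the count condition. The 11-exon row and a 10-exon row from 243422811 to 243438050 held no run. The shared run is thus a feature of 3 of the 5 rows, and the 10-exon and 11-exon rows lie on either side of them. Of these 3, the row matched to Adh7 has a gene name that bears on the label of the cluster.

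**Figure D1:**
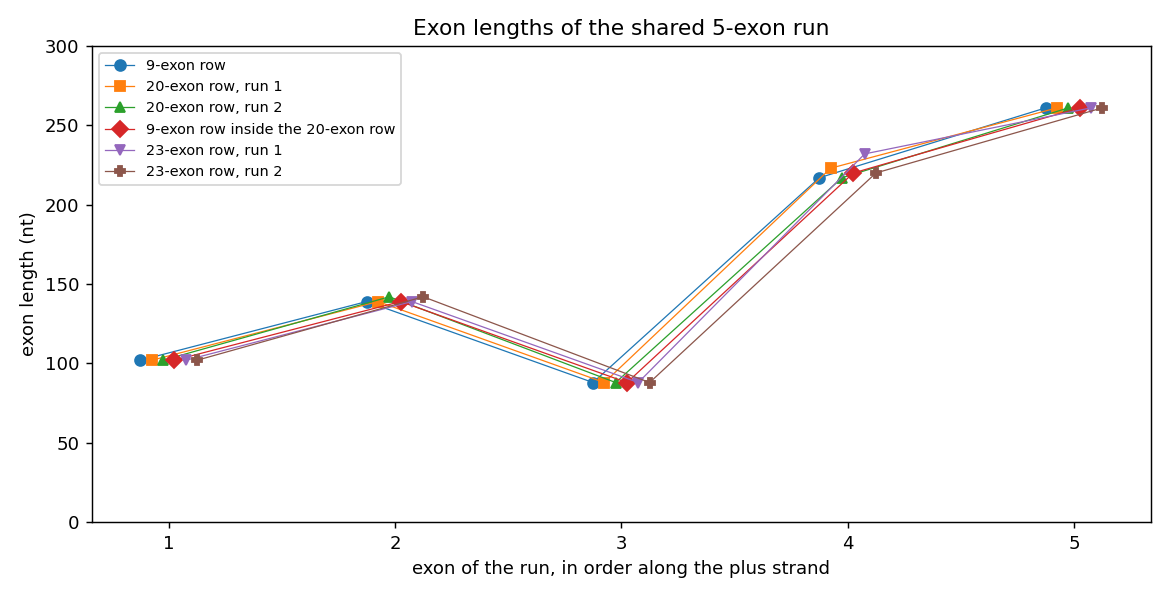
Exon length in nt (vertical axis) against the place of the exon in the shared run (horizontal axis), 1 symbol per run, with points shifted sideways so that they can be told apart. The exons at the outer and the middle places measured 102, 261 and 88 nt in all 6 runs, by the search itself, and the fourth ranged from 217 to 232 nt.

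Library totals ranged from 23892226 to 44977459 counts, and the members together held 1176 to 3783 counts per library. All 5 rows passed the filter on low counts. Levels are CPM, counts per 1000000 counts, scaled by TMM factors, which allow for a few abundant transcripts taking an unequal share of a library. Counts differed between the 2 libraries of a group well beyond sampling noise, at a chi-square per degree of freedom of 41.3 to 420.2. On 7 Y-chromosome features, 4 libraries held 2733 to 4438 counts, namely both of honokiol plus indomethacin and the first replicates of indomethacin and control. All diclofenac and aspirin libraries, and the second replicates of indomethacin and control, held at most 47. Mitochondrial rows and single-exon rows of at most 350 nt took 52.3% to 58.3% of counts with honokiol plus indomethacin, 55.6% and 43.3% with indomethacin, 43.7% and 45.6% with diclofenac, 44.5% and 43.5% with aspirin, and 61.0% and 56.4% in control. In bulk tissue, fewer cells of a type and less RNA per cell cannot be told apart. How reads that match several related genes were counted is not stated in the sources used here, and the related rows of the cluster are uncertain to that extent.

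The 9-exon row, matched by span to Adh7, was the most abundant of the 5 per length in all libraries of honokiol plus indomethacin, indomethacin and control, and it was low with diclofenac and aspirin. It had 1515 and 1115 counts with honokiol plus indomethacin, 2151 and 1946 with indomethacin, 460 and 325 with diclofenac, 342 and 374 with aspirin, and 1989 and 1171 in control. In TMM-scaled CPM these were 49.0 and 41.7 with honokiol plus indomethacin, 59.97 and 49.97 with indomethacin, 10.4 and 7.74 with diclofenac, 12.6 and 8.85 with aspirin, and 62.8 and 39.1 in control. All 4 diclofenac and aspirin libraries thus lay below all 6 others, with a gap between 12.6 and 39.1 CPM that no library filled.

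In order of mean CPM, indomethacin came first at 55.0 ± 7.07, then control at 50.9 ± 16.8, honokiol plus indomethacin at 45.4 ± 5.18, aspirin at 10.7 ± 2.64 and diclofenac at 9.08 ± 1.91 (SD, n = 2 each). Diclofenac and aspirin overlapped, and indomethacin and control overlapped, as did honokiol plus indomethacin and control. Both honokiol plus indomethacin libraries lay below both indomethacin libraries, the nearest pair being 49.0 and 49.97 CPM. Per kilobase of exon the row had 24.2 and 20.6 CPM with honokiol plus indomethacin, 29.6 and 24.7 with indomethacin, 5.16 and 3.82 with diclofenac, 6.22 and 4.37 with aspirin, and 31.0 and 19.3 in control. The 11-exon row had 7.53 and 8.70 CPM per kilobase with diclofenac and 5.97 and 7.68 with aspirin, so it exceeded the 9-exon row in 3 of these 4 libraries, the exception being aspirin replicate 1.

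**Figure D2:**
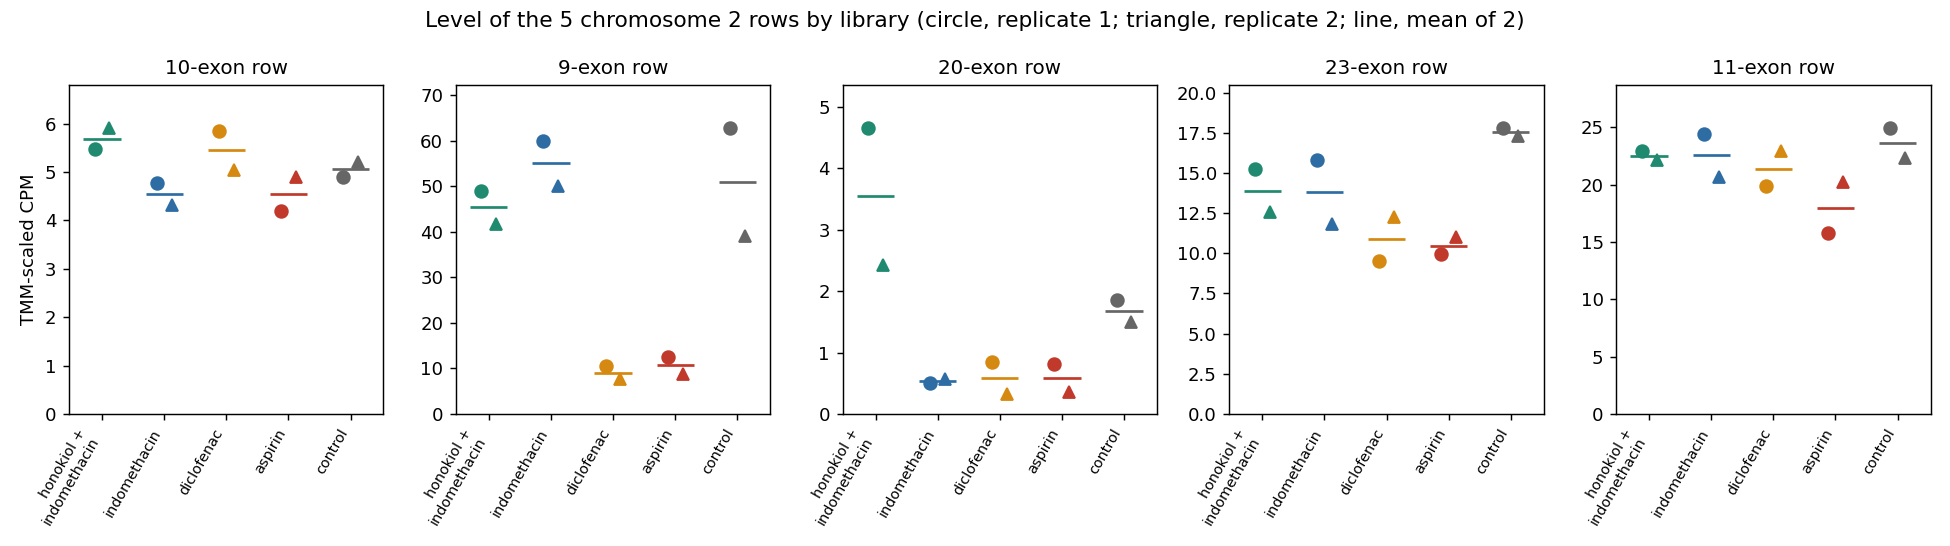
TMM-scaled CPM (vertical axes, each from 0) of the 5 rows in each library, by group, with circles for replicate 1, triangles for replicate 2 and a line for the mean of 2. The 9-exon row sits at 7.74 to 12.6 CPM in the diclofenac and aspirin libraries and at 39.1 to 62.8 CPM in the other 6, while the 10-exon row stays between 4.19 and 5.91 CPM.

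Fitted log2 fold changes of the 9-exon row were 2.36 ± 0.28 for indomethacin against aspirin and 2.60 ± 0.28 for indomethacin against diclofenac (SE), the contrasts on which it was chosen. Against control, in comparisons that share the same drug libraries, they were -2.49 ± 0.28 with diclofenac and -2.25 ± 0.28 with aspirin (SE), or 5.61-fold and 4.77-fold lower than in control. The fitted values were 0.11 ± 0.27 for indomethacin against control, -0.28 ± 0.27 for honokiol plus indomethacin against indomethacin and -0.23 ± 0.27 for diclofenac against aspirin (SE). Honokiol plus indomethacin against control, which uses none of the libraries of the choice, missed the threshold, at a fitted log2 value of -0.17 ± 0.27 (SE, edgeR adjusted p = 0.90). That p does not show that the levels are equal.

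A ratio within each library needs no scaling. By this measure the 9-exon row had 2.14 and 1.89 counts per count of the 11-exon row with honokiol plus indomethacin, 2.46 and 2.41 with indomethacin, 0.526 and 0.337 with diclofenac, 0.799 and 0.437 with aspirin, and 2.52 and 1.75 in control. The 4 diclofenac and aspirin ratios were again the lowest. Of the counts on the 5 rows, the 9-exon row held 49.2% to 57.2% with honokiol plus indomethacin or indomethacin, 22.5% and 16.0% with diclofenac, 29.1% and 19.5% with aspirin, and 55.9% and 45.8% in control.

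**Figure D3:**
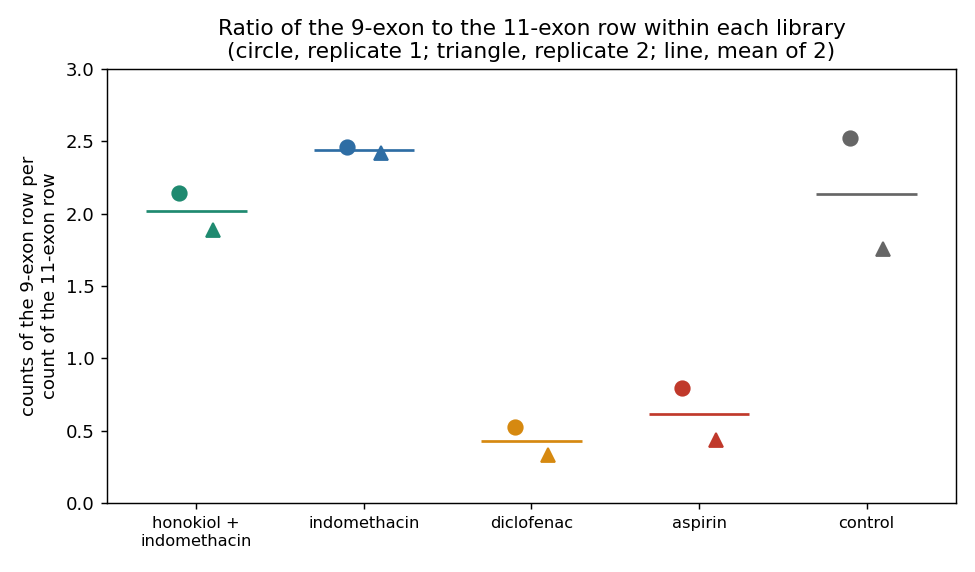
Counts of the 9-exon row per count of the 11-exon row within each library (vertical axis, from 0), by group, with circles for replicate 1, triangles for replicate 2 and a line for the mean of 2. The diclofenac and aspirin libraries lie between 0.337 and 0.799 and the other 6 between 1.75 and 2.52.

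Other measures moved with these groups, in whole or in part. The diclofenac and aspirin libraries lacked Y-chromosome reads beyond a few, as did indomethacin replicate 2 and control replicate 2. The text files of the 4 diclofenac and aspirin libraries end in 2 blank lines where the others end in 1. No label names a batch, and the drugs cannot be told apart from whatever set these 4 files apart. Among the 6 libraries without Y reads, the 9-exon row had 49.97 CPM in indomethacin replicate 2, 10.4 and 7.74 with diclofenac, 12.6 and 8.85 with aspirin, and 39.1 in control replicate 2. With a term for Y reads in the model its log2 fold change against control was -2.21 with diclofenac and -1.98 with aspirin. The share of mitochondrial and short rows was as low in indomethacin replicate 2 (43.3%) as with diclofenac and aspirin, and the 9-exon row had 49.97 CPM in that library. The part of these measures in the result was not tested further.

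The 20-exon row, which lists 2 of the exon runs, was the scarcest of the 5 and varied most, over a 14.0-fold range of CPM. It had 144 and 65 counts with honokiol plus indomethacin, 18 and 22 with indomethacin, 37 and 14 with diclofenac, 22 and 15 with aspirin, and 59 and 45 in control. In CPM these were 4.66 and 2.43 with honokiol plus indomethacin, 0.502 and 0.565 with indomethacin, 0.839 and 0.333 with diclofenac, 0.809 and 0.355 with aspirin, and 1.86 and 1.502 in control. All 6 libraries with an NSAID alone lay below both controls, and both honokiol plus indomethacin libraries lay above them. Taken drug by drug, 18.2% of all rows lay wholly below control with indomethacin, 28.3% with diclofenac and 30.2% with aspirin. The share wholly above control with honokiol plus indomethacin was not counted.

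None of these differences of the 20-exon row passed the test over all rows. The largest was that of honokiol plus indomethacin against indomethacin, at a log2 fold change of 2.73 ± 0.52 or 6.62-fold (SE, edgeR adjusted p = 0.063). With all 10 libraries kept, it passed with DESeq2 (adjusted p = 0.00026), without the low-count filter and with the replicate block (edgeR adjusted p = 0.028). It missed the threshold in the other such alternatives, among them the term for Y reads (edgeR adjusted p = 0.21). The log2 fold change ranged from 2.18, without honokiol plus indomethacin replicate 1, to 3.12, without replicate 2 of that group, when single libraries were left out. Against control the log2 fold change was 1.08 ± 0.48 with honokiol plus indomethacin (SE, edgeR adjusted p = 0.83), -1.65 ± 0.52 with indomethacin (adjusted p = 0.25), -1.51 ± 0.51 with diclofenac (adjusted p = 0.089) and -1.57 ± 0.53 with aspirin (adjusted p = 0.059). The difference with aspirin passed in 5 of 18 alternatives, among them DESeq2 (adjusted p = 0.037). At 14 to 65 counts in 9 of the 10 libraries, counting error alone was wide: indomethacin replicate 1 held 0.413 counts of this row per 1000000 counts, with an exact 95% Clopper-Pearson interval of 0.245 to 0.652 that covers counting error only.

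The 23-exon row, the other row with 2 exon runs, was highest in control. It had 15.2 and 12.6 CPM with honokiol plus indomethacin, 15.8 and 11.8 with indomethacin, 9.50 and 12.3 with diclofenac, 9.93 and 11.03 with aspirin, and 17.8 and 17.3 in control. Every treated library was below both controls, and the share of all rows with that pattern was not counted. The row fell with aspirin, by 0.74 ± 0.21 on the log2 scale or 1.68-fold (SE, edgeR adjusted p = 0.037). This call was lost in 10 of 18 alternatives, among them the term for Y reads (log2 fold change -0.63, adjusted p = 0.12) and the omission of either control or either aspirin library. The other fitted log2 fold changes against control were -0.34 ± 0.21 with honokiol plus indomethacin (SE, edgeR adjusted p = 0.83), -0.35 ± 0.21 with indomethacin (adjusted p = 0.66) and -0.69 ± 0.21 with diclofenac (adjusted p = 0.068). Set against the 11-exon row within each library, it had 0.665 and 0.569 counts per count with honokiol plus indomethacin, 0.647 and 0.572 with indomethacin, 0.479 and 0.534 with diclofenac, 0.631 and 0.544 with aspirin, and 0.714 and 0.777 in control.

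The rows without the exon run varied little. The 11-exon row, matched by span to Metap1, had 22.9 and 22.1 CPM with honokiol plus indomethacin, 24.4 and 20.7 with indomethacin, 19.8 and 22.9 with diclofenac, 15.7 and 20.3 with aspirin, and 24.9 and 22.3 in control. Its furthest log2 fold change from 0 was -0.39 ± 0.20 with aspirin against control (SE, edgeR adjusted p = 0.17). The 10-exon row had 5.47 and 5.91 CPM with honokiol plus indomethacin, 4.77 and 4.31 with indomethacin, 5.85 and 5.05 with diclofenac, 4.19 and 4.90 with aspirin, and 4.89 and 5.21 in control. Its furthest was 0.33 ± 0.21 for honokiol plus indomethacin against indomethacin (SE, edgeR adjusted p = 0.69). Libraries of the groups overlapped in 6 of 8 comparisons of the 11-exon row and in 3 of 8 of the 10-exon row. The 9-exon, 20-exon and 23-exon rows also overlapped in 3 of 8, so this count does not set the 10-exon row apart. How often all tested rows overlapped over these 8 comparisons was not counted, so nothing is read from these counts. The highest CPM over the lowest was 1.58 for the 11-exon row and 1.41 for the 10-exon row.

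**Figure D4:**
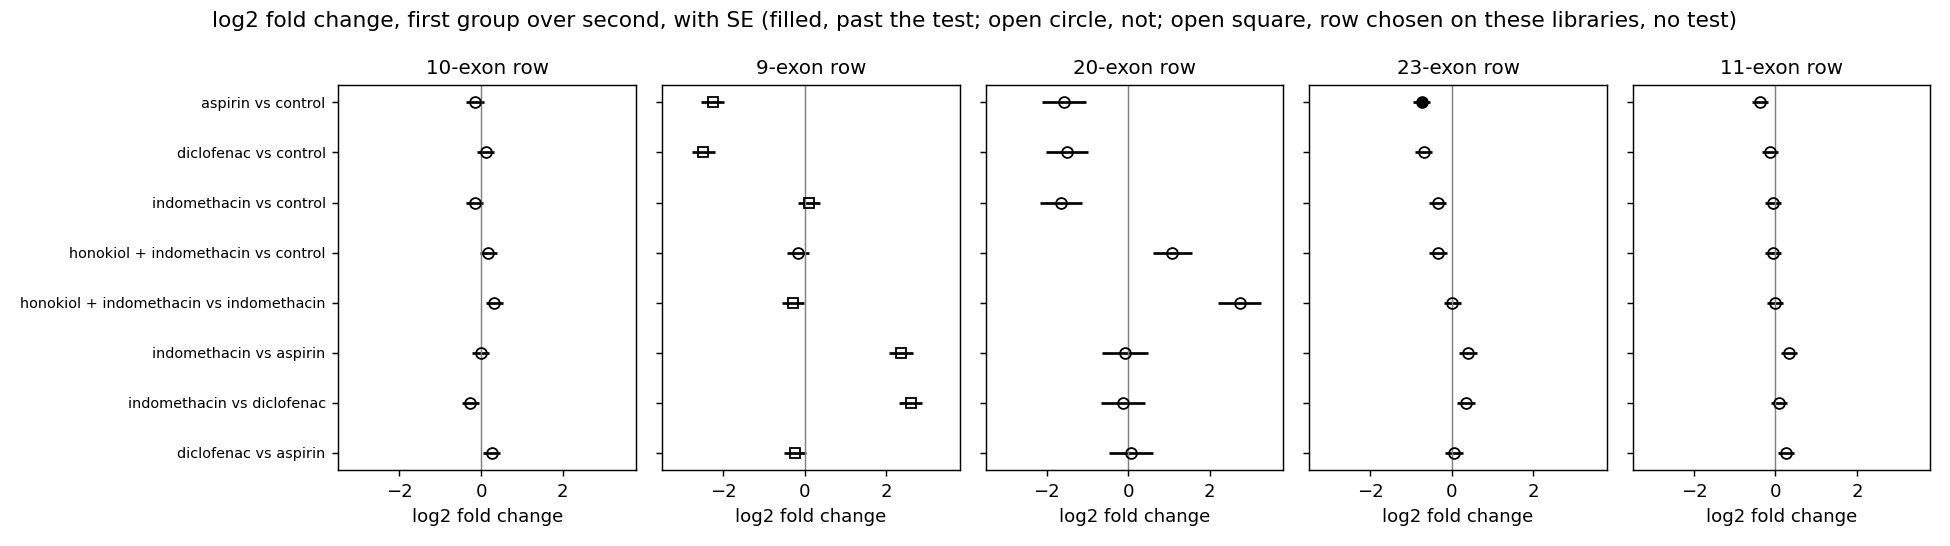
log2 fold change, first group over second (horizontal axis), with bars of 1 SE, for the 5 rows in 8 comparisons; filled circles passed edgeR's test, open circles did not, and open squares mark the 9-exon row in the comparisons on whose libraries it was chosen, with no test. The squares lie at -2.49 with diclofenac and -2.25 with aspirin against control, at 2.36 and 2.60 for indomethacin over aspirin and diclofenac, and between -0.28 and 0.11 in the other 3 comparisons, and the only filled point is the 23-exon row with aspirin at -0.74.

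Counted over the cluster, aspirin against control had 2 of the 5 rows called lower, the 9-exon row on whose libraries the choice rested and the 23-exon row, where 8.27% of all 16346 tested rows were called lower. Diclofenac against control had 1 of 5 called lower, again the 9-exon row, against 3.11% of all rows. Because that row was chosen on these drug libraries, its part in both counts is a description and no test. Indomethacin against aspirin and indomethacin against diclofenac each had 1 of 5 called higher, against 0.0184% of all rows in each. These last counts are fixed by the choice of the 9-exon row, and each was 0 without indomethacin replicate 1, as it was without aspirin replicate 1 and without diclofenac replicate 1 in the comparison that uses them. No row was called for indomethacin against control, where 0.777% of all rows were called in either direction, for honokiol plus indomethacin against indomethacin (0.343%), or for honokiol plus indomethacin against control and diclofenac against aspirin (0% each). At an unadjusted edgeR p under 0.05, the 20-exon row was the 1 of 5 that passed in indomethacin against control (9.87% of all rows), in honokiol plus indomethacin against indomethacin (9.50%) and in honokiol plus indomethacin against control (5.004%), and in diclofenac against aspirin 0 of 5 passed (5.22%). DESeq2 also called none of the 5 in indomethacin against control, honokiol plus indomethacin against control and diclofenac against aspirin. It called the 20-exon row in honokiol plus indomethacin against indomethacin. In aspirin against control it called 3 of the 5, the 20-exon row being added to the 2 that edgeR called. The share of all rows that DESeq2 called was not counted.

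Libraries did not overlap, with the drug below control, in 3 of the 5 rows with indomethacin, 3 with diclofenac and 4 with aspirin, where 18.2%, 28.3% and 30.2% of all rows did so. The diclofenac and aspirin counts include the 9-exon row, chosen on those libraries, so they are a description. Both honokiol plus indomethacin libraries lay above both indomethacin libraries in 2 of the 5, the 20-exon and 10-exon rows, against 21.7% of all rows. The median log2 fold change of the 5 rows against control was -0.07 with honokiol plus indomethacin, -0.15 with indomethacin, -0.69 with diclofenac and -0.74 with aspirin, and that of all tested rows lay between -0.02 and 0 in each. As the 9-exon row is low in the diclofenac and aspirin libraries by choice, the medians with these drugs follow the choice in part. These comparisons share their control libraries. Summed over the 5 rows, the share of all counts was 0.0107% and 0.00836% with honokiol plus indomethacin, 0.00867% and 0.00982% with indomethacin, 0.00456% and 0.00486% with diclofenac, 0.00492% and 0.00485% with aspirin, and 0.00999% and 0.00795% in control. These sums include the 9-exon row, so they follow the choice and are a description. Over the other 4 rows the share was 0.00532% and 0.00425% with honokiol plus indomethacin, 0.00374% and 0.00420% with indomethacin, 0.00353% and 0.00408% with diclofenac, 0.00349% and 0.00391% with aspirin, and 0.00440% and 0.00431% in control. Here diclofenac and aspirin overlapped with indomethacin. Exact 95% Clopper-Pearson intervals of these shares ran from 0.00356% to 0.00393% in indomethacin replicate 1 and from 0.00389% to 0.00428% in diclofenac replicate 2, for counting error only.

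Rows elsewhere in the genome with the pattern most like that of the 9-exon row were ranked by Pearson's r of log2 CPM over the 10 libraries, among 11363 rows whose log2 CPM averaged 1 or more. Because the libraries fall into 2 levels of the 9-exon row, r mostly measures the same split, and 141 rows had r above 0.9. The closest, at r = 0.98, was a single-exon row of 274 nt on chromosome 3 from 75024206 to 75024479. The next, all at r = 0.97, were a 10-exon row on chromosome X from 31852323 to 31968152, a 6-exon row on chromosome 9 from 100848598 to 100888107, a 7-exon row on chromosome 9 from 10773901 to 10781109 and a 2-exon row on chromosome 4 from 28989115 to 28993621. Mean levels of the single-exon row were 10.6 ± 1.52 CPM for honokiol plus indomethacin, 11.9 ± 2.56 for indomethacin, 1.72 ± 0.00698 for diclofenac, 2.09 ± 0.419 for aspirin and 14.5 ± 2.18 for control (SD, n = 2 each). The 7-exon row on chromosome 9 differed less, with means of 17.4 ± 2.15 CPM for honokiol plus indomethacin, 17.9 ± 0.134 for indomethacin, 10.8 ± 0.0726 for diclofenac, 10.3 ± 0.336 for aspirin and 19.4 ± 4.12 for control (SD, n = 2 each). None of the 5 lies on chromosome 2.

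**Figure D5:**
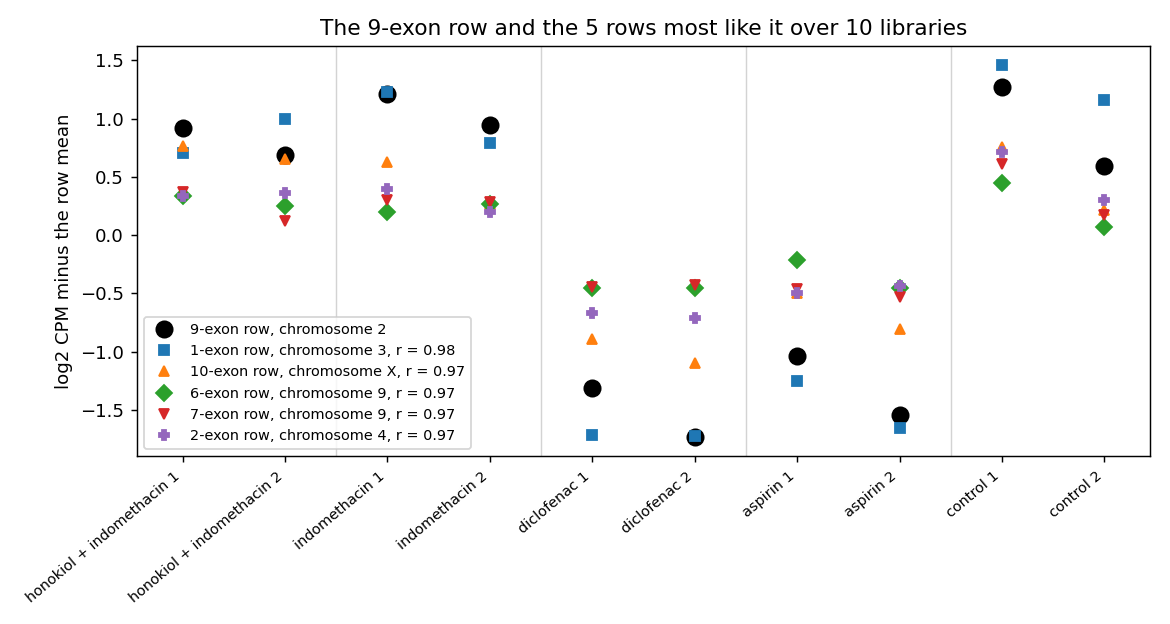
log2 CPM minus the mean of the row over 10 libraries (vertical axis) for the 9-exon row and the 5 rows most like it, library by library, with grey lines between groups. All 6 rows lie below their means in the 4 diclofenac and aspirin libraries and above them in the other 6.

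Of the rows in the interval outside the rule, 3 list a single exon and 5 missed the count condition. The condition separated the 20-exon row, with 14 to 144 counts and 10 or more in all 10 libraries, from the inner 9-exon row with the exon run, which reached 10 or more in 1 library. Rows further below it were an 18-exon row from 243366181 to 243407608 with at most 6 counts and another 11-exon row, from 243447168 to 243475639, with at most 9. A total of 2 rows had no count in any library.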

How the data were processed

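Values are the whole-number counts per gene deposited by the authors, 1 table per library with exon coordinates and exonic length (the unit of which is nt, taken as the other deposited value), laid out as featureCounts writes them per the file headers. Per the labels' protocols, ribosomal RNA was removed, and the libraries were stranded and read from both ends. The tools named per the submitters' processing notes include HISAT2 2.1.0, cutadapt 1.16 and FastQC 0.11.7 besides featureCounts. Genome build, strand setting and the handling of multi-mapped reads are not stated there. Empty closing lines were skipped.

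All 10 libraries entered 1 edgeR 4.0.16 quasi-likelihood fit in R 4.3.3 (group-only model, TMM factors, filterByExpr with minimum count 10 and minimum total 15, robust moderation). Calls were made where the p adjusted by Benjamini-Hochberg over 16346 rows was under 0.05. The SE is the log2 fold change divided by the square root of F. The method was tried on simulated data with the same spread for every row and large changes in abundant rows. That trial covered neither changes in scarce rows nor small changes. Alternatives were RLE factors, no filter, a stricter filter (1 CPM and 10 counts in 2 libraries), DESeq2 1.42.0, a replicate block, a term for Y reads (over 1000 counts), libraries without Y reads, library size without mitochondrial and short rows, and leaving out each library. Intervals cover counting error only. Interval bounds were 243300000 and 243850000. All rows the rule selects are described, and the 5 most alike rows by r. The planned symbol lists of alcohol and retinoid metabolism and of cell types could not be applied. The members, lists and alternatives were chosen with earlier results of these data known.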

Additional observations from a re-analysis of the deposited data

Results flagged for a closer look

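The rows of the interval that the rule leaves out were 3 with a single exon and 5 with more. Each was set against control in every treated group, without correction for the number of comparisons. The exact 95% interval of the depth-scaled ratio to control lay above 1, with more than 3 counts in the treated group, in 3 cases. Other such rows had more counts than control in some groups, with intervals that reached below 1. The interval lay wholly below 1 for the 11-exon row from 243447168 to 243475639 with aspirin (1 count, 9 in control, 0.0022 to 0.711). It also did so for a 2-exon row from 243777858 to 243799235 with diclofenac (3 counts, 9 in control, 0.0415 to 0.956). The inner 9-exon row from 243577082 to 243599400, which carries the exon run, had 12 counts with honokiol plus indomethacin and 0 in control. Set against a fixed floor of 3 counts in place of the 0 of both controls together, the observed ratio was 4.28. The exact 95% interval of the ratio to control began at 2.97. Of the 12 counts, 11 fell in replicate 1, the library with the highest count of the 20-exon row (144), and the row had 0 counts in all indomethacin, diclofenac and aspirin libraries. The 18-exon row from 243366181 to 243407608 had 10 counts with indomethacin and 1 in control, a ratio of 8.24 (95% interval 1.17 to 358), and 10 counts with aspirin, a ratio of 8.87 (95% interval 1.26 to 385). These intervals cover counting error only.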

How the results depend on the processing

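None of the 22 log2 fold changes of members that exceeded their SE changed direction in the alternatives run. Of the 17 with a test, 12 stayed on the same side of the threshold in all of them, and all 12 were on the side that missed it. The only tested difference that passed in the main fit, that of the 23-exon row with aspirin, did not keep its call throughout. For aspirin against control, 2 members called became 1 with the term for Y reads and 1 among libraries without Y reads, 3 with DESeq2 and 3 without the low-count filter (the 20-exon row added), and ranged from 1 to 3 with single libraries left out, being 1 without either control, either aspirin or either honokiol plus indomethacin library or indomethacin replicate 1, and 3 without either diclofenac library. Diclofenac against control went to 2 and indomethacin against control to 1 without the low-count filter, the 20-exon row being the addition. Honokiol plus indomethacin against indomethacin went from 0 to 1, the 20-exon row, without the filter, with DESeq2 and with the replicate block, and ranged from 0 to 1 with single libraries left out (0.021 to 0.048 as adjusted p where it passed, without either aspirin or either diclofenac library). Indomethacin against aspirin went from 1 to 0 with the term for Y reads and among libraries without Y reads, and ranged from 0 to 1 with single libraries left out, being 0 without indomethacin replicate 1 or aspirin replicate 1. Indomethacin against diclofenac ranged from 0 to 1, being 0 without indomethacin replicate 1 or diclofenac replicate 1. The member called in indomethacin against aspirin and against diclofenac was the 9-exon row in the main fit. That row was chosen on these contrasts, so its calls there are a description and no test. Its part in the aspirin and diclofenac counts against control is a description too. Calls made with 1 library left in a group assume that it varies like the others. The cause of these changes was not tested. The 9-exon row had log2 fold changes of -2.76 to -2.07 with diclofenac and -2.52 to -1.84 with aspirin against control over all alternatives. Honokiol plus indomethacin could not be fitted among libraries without Y reads. Replicate numbers were not taken as pairing: deviations of same-numbered libraries correlated at -0.26 to 0.30 over 10 pairs of groups, 4 of them above 0.1, and with the replicate block the 23-exon row was no longer called with aspirin (adjusted p = 0.056) and the 20-exon row was (0.038). Without mitochondrial and short rows in the denominator the summed share was 0.0225% and 0.0201% with honokiol plus indomethacin, 0.0195% and 0.0173% with indomethacin, 0.00809% and 0.00893% with diclofenac, 0.00887% and 0.00859% with aspirin, and 0.0256% and 0.0182% in control. Depth limits the 20-exon row most.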
